A study of Arabidopsis thaliana with 6 samples.

Results

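The genes described here are 38 photoreceptor and light-signalling genes of Arabidopsis thaliana, chosen by gene identifier from a fixed list, out of 31109 genes in the count tables. They cover the phytochromes, cryptochromes and phototropins, the UV-B receptor UVR8, the COP1-SPA and DET1 complexes, the bZIP factors HY5 and HYH, the phytochrome-interacting factors (PIFs) and shade-response regulators. The reads come from 9-day-old seedlings of the Col-0 ecotype in 3 genotypes, the wild type (WT), nerd-1 and cpsf30-1, with 2 libraries per genotype. The sources used here do not give the nature of either allele, the light regime, or whether the replicates were separate cultures, so p-values measure the spread between these libraries, which may be technical. CPSF30 belongs to the machinery that cleaves mRNA precursors and adds their poly(A) tail. NERD is a factor of gene silencing by small RNAs. Whole seedlings were sampled, so fewer cells of a type and less RNA per cell cannot be told apart.

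Each value is a count of reads from a window of 500 bases that begins where a transcript's annotation stops, at its 3' end, so a change describes reads of that window and not expression of the gene it follows. The count tables hold no positions, so each window was rebuilt from the TAIR10.1 gene models, which need not have the ends the authors used. Of 2145 pairs of transcripts of 1 gene with the same rebuilt window and at least 50 counts, 288 (13.4%) had different deposited counts, and of 3315 pairs with rebuilt windows 50 or more bases apart, 856 (25.8%) had identical counts. Every position, overlap, class and end sequence below is that of the rebuilt window, and the counted window may lie elsewhere. The transcript whose rebuilt window lies farthest downstream stands for each gene. The levels below are CPM, that is counts scaled to library size with TMM factors. Every window has the same length, but differences in level between genes may also reflect overlapping neighbours and counting rules that are not given. Counts over 1 window per gene totalled 8703050 to 13740648 per library, and where a window has no count, its level could still reach 0.218 to 0.345 CPM, depending on the library (3 counts of the total, counting error only). The 38 windows together held 0.07% to 0.0914% of the counts of a library. As a check of the labels, the window past CPSF30 isoform 2, of which 373 bases are CPSF30 exons, had 43 to 66 counts in the WT and nerd-1 libraries but 1 and 0 in the cpsf30-1 libraries. The window past isoform 1, which ends farther downstream and holds no CPSF30 exon, showed no such loss. It had 4 and 2 (WT), 3 and 4 (nerd-1) and 4 and 16 (cpsf30-1) counts. NERD gave no such check, with 3 counts past its end in a single cpsf30-1 library and none elsewhere. Of 5 green-tissue genes, RBCS1A had 2736 and 5 counts past its end (WT), 3 and 1 (nerd-1) and 4515 and 86 (cpsf30-1). The 4 others summed to 20 and 49 (WT), 18 and 20 (nerd-1) and 406 and 369 (cpsf30-1), higher in both cpsf30-1 libraries than in the rest. Those past 5 root genes summed to 563 to 1024, mostly from PYK10 with 484 to 908. Those past 5 flower or seed genes summed to 0 to 4, with 1 of those 5 at 0 throughout. These sums count reads past the genes' ends, not expression, and the part of the green-tissue difference in the results below was not tested.

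Plants read light through several receptor families. Phytochromes sense red and far-red light, cryptochromes and phototropins sense blue light, and UVR8 senses UV-B. In the dark the COP1-SPA ubiquitin ligase, together with the DET1 complex, leads to the destruction of factors such as HY5 that promote seedling greening, while PIFs hold the dark programme in place. Active receptors restrain COP1-SPA and PIFs, so that HY5 and its relative HYH can act.

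In cpsf30-1 against WT, reads rose past HYH and PHYA and fell past SPA2, SPA3 and HB4. Against nerd-1, cpsf30-1 had more reads past HYH, PHYA and HY5 and fewer past SPA3. In nerd-1 against WT no member passed the test. The 6 genes with a call are those whose annotated ends are printed here, because the rebuilt windows begin at these ends. The windows the authors counted may begin elsewhere. The sequences are the last 30 bases before the annotated end of the farthest-reaching transcript, 5′ to 3′ on the gene's strand, read from the TAIR10.1 reference, with the canonical polyadenylation signal AATAAA in capitals.
HYH, chr3:6024681-6024710, plus strand: actttgagcatcattgtcattcagatttgc
PHYA, chr1:3095160-3095189, minus strand: taatctccttcttttaaggtattagaggta
HY5, chr5:3593335-3593364, minus strand: gtagtagaaaggttgcgttttcgattcccg
SPA2, chr4:6777196-6777225, plus strand: tttgttgaatgttcacaaaagtaatctttg
SPA3, chr3:5169095-5169124, minus strand: aacatctcAATAAAaaaaggttataatttt
HB4, chr2:18517656-18517685, minus strand: gtttattacctctaaaatcatgagagagat
Of these 6 ends, SPA3 alone carried AATAAA in the last 30 bases, starting 22 bases before the end. Over the last 50 bases, on the gene's own strand, 4 of the 38 members held AATAAA (10.5%), as did 8.78% of the 30618 gene ends placed on the 5 nuclear chromosomes. AATAAA or a form with 1 base changed stood there in 21 members (55.3%) and in 49.8% of all ends. Past the end, within the rebuilt window, 17 members held AATAAA (44.7%, against 45.0% of all windows). In 2 of the 6 genes it lay close to the start of the window, as the first 30 bases past the end show, again with AATAAA in capitals.
HYH, chr3:6024711-6024740, plus strand: aaAATAAAgtaaaaaaaaacgaaaaaaggc
HB4, chr2:18517626-18517655, minus strand: cttctaggggttgtacgtAATAAAacatta
A match describes letters only, and its absence says only that these letters are not in the stretch searched.

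Most members had few reads past their ends. Of the 38, 21 windows (55.3%) were free of other annotated genes on both strands, and are called isolated, against 44.8% of all genes. A further 10 overlapped another gene on the same strand and 7 overlapped a gene on the other strand only. The median count summed over the 6 libraries was 10 for isolated member windows, 123 for same-strand overlaps and 1411 for other-strand overlaps. The same medians over all genes were 3, 223 and 453. The edgeR filter on low counts let 18 members be tested, 5 of the 21 isolated ones and 13 of the 17 others. A window near 0 can pass this filter by being high in 1 genotype.

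**Figure D1:**
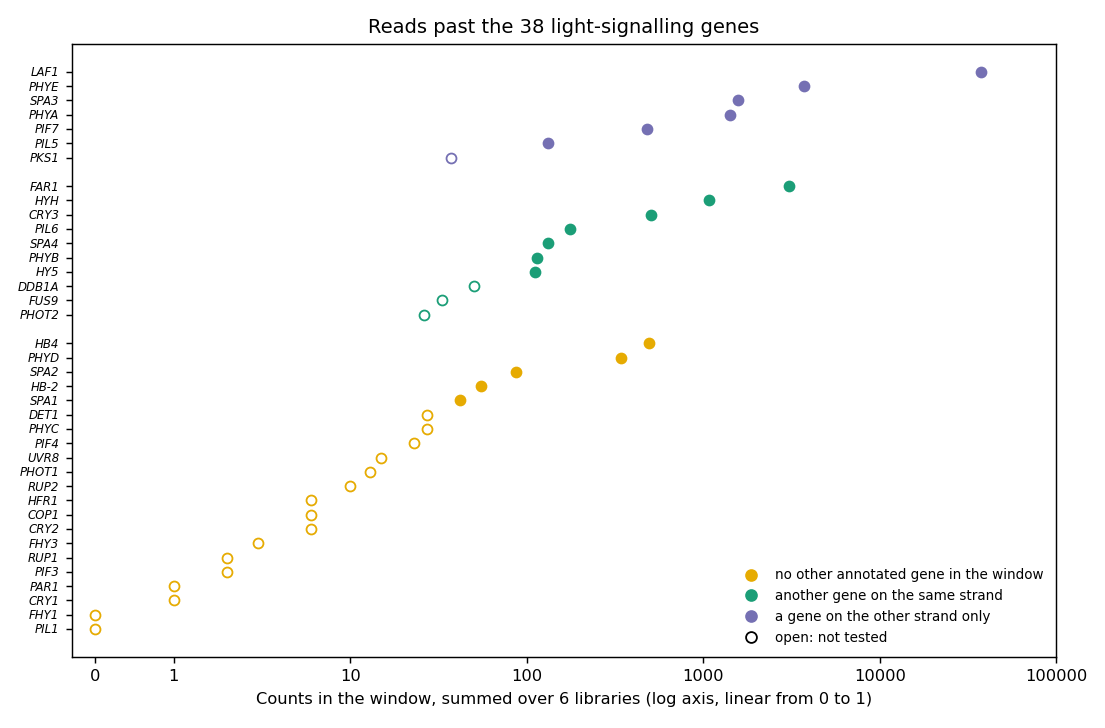
Counts in the window past each of the 38 genes, summed over the 6 libraries, on a log axis that is linear from 0 to 1; colours give the class of the window and open circles the 20 members not tested. Isolated windows fill the low end, from 0 for FHY1 and PIL1 to 494 for HB4, and the window past LAF1, which lies on ACYB-2, holds 37272.

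The 20 members not tested had 0 to 50 counts over all 6 libraries and at most 13 in any 1 library. They include the main blue-light receptors CRY1 (AT4G08920, 1 count in all) and CRY2 (AT1G04400, 6), the phototropins PHOT1 (AT3G45780, 13), which steers growth towards light, and PHOT2 (AT5G58140, 26), and the phytochrome PHYC (AT5G35840, 27). The UV-B receptor UVR8 (AT5G63860) had 15 counts, and its repressors RUP1 (AT5G52250) and RUP2 (AT5G23730) had 2 and 10. All 10 counts of RUP2 fell in cpsf30-1 replicate 1, where 8 consecutive neighbouring windows held at least 10 counts each. Such a floor shared by neighbours is called a run here, and 2859 windows lay in one by the rule that it reached 10 counts and 25% of the window's own count. COP1 (AT2G32950), the ubiquitin ligase that gives its complex its name, had 6 counts. Its partners in the repression of light responses had 27 for DET1 (AT4G10180), 33 for FUS9 (AT3G13550), also called COP10, and 50 for DDB1A (AT4G05420). Among the bHLH factors, PIF3 (AT1G09530) had 2 counts and PIF4 (AT2G43010) had 23, while PIL1 (AT2G46970), HFR1 (AT1G02340) and PAR1 (AT2G42870), which restrain PIF action in shade, had 0, 6 and 1. FHY1 (AT2G37678), which carries phytochrome A into the nucleus, had 0, its activator FHY3 (AT3G22170) had 3, and PKS1 (AT2G02950), a phytochrome-binding protein, had 37. Reads from these gene ends were too few to compare the genotypes at this depth.

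For PHOT2 and FUS9 a second deposited transcript ends inside the gene, so that its rebuilt window holds exons of the gene itself. The window past PHOT2 isoform 4 lies 3711 bases upstream of the farthest PHOT2 end and covers 284 bases of PHOT2 exons. Counts there were 2826 and 4333 (WT), 3389 and 3437 (nerd-1) and 2956 and 3346 (cpsf30-1), whereas the window past the farthest PHOT2 end held 2 to 6 per library. The inner window did not pass the test in cpsf30-1 against WT (log2 fold change -0.15, SE 0.149, edgeR adjusted p = 0.548, from a fit over every deposited transcript with n = 2 per group). The window past FUS9 isoform 2 covers 406 bases of FUS9 exons with counts of 173 and 436 (WT), 239 and 200 (nerd-1) and 249 and 219 (cpsf30-1) (log2 fold change -0.28, SE 0.288, adjusted p = 0.569). Only 3 to 8 counts per library lay past the farthest FUS9 end. An inner DDB1A window, 118 bases upstream of the farthest end, stayed low, with 7 to 17 counts per library (log2 fold change 0.19, SE 0.588, adjusted p = 0.87).

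Setting cpsf30-1 against WT addresses whether reads past gene ends differ in the polyadenylation factor mutant. Of the 18 members tested, 2 rose and 3 fell (edgeR quasi-likelihood F-test, Benjamini-Hochberg adjusted p under 0.05 over all 14151 windows), which is 27.8% of them. Over all windows 10.3% passed, 7.41% as rises and 2.85% as falls. The call of SPA2, among the falls, is not independent of the low-count filter. The members were also chosen with earlier results of these data known, which limits what these shares can show. The median log2 fold change was -0.10 in the tested members and -0.01 in all windows. Of the 18, 8 lay above 0 and 10 below it, and 7 had an unadjusted p under 0.05, beside 3919 of all 14151 windows.

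**Figure D2:**
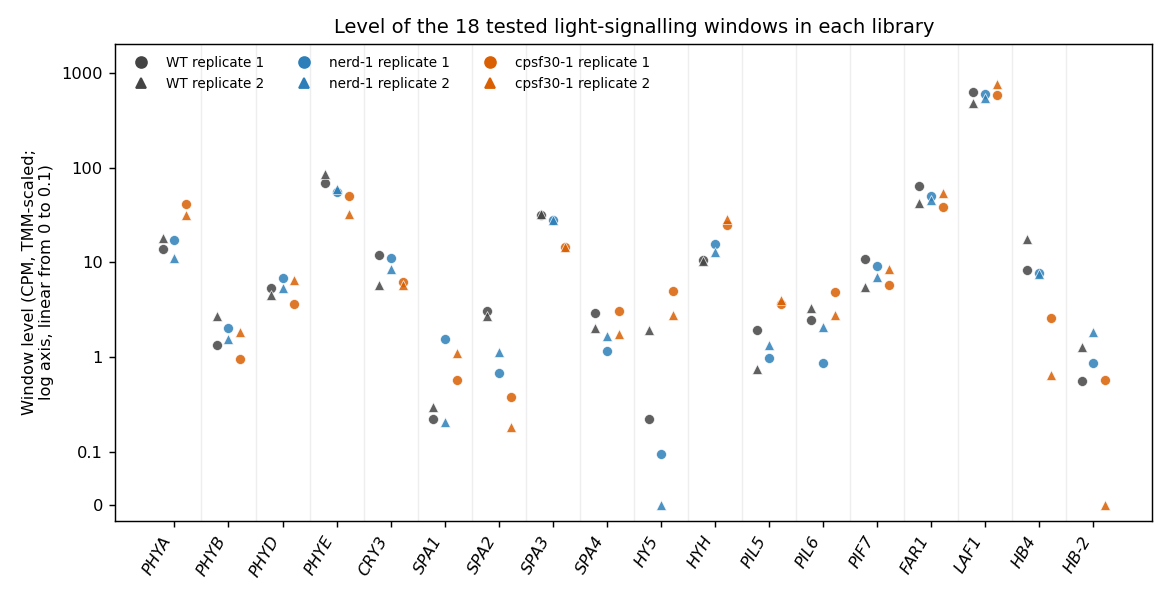
Level in CPM of the 18 tested windows in each of the 6 libraries, on a log axis that is linear from 0 to 0.1; colours give the genotype and symbols the replicate. Both cpsf30-1 libraries stand above the 4 others for HYH, PHYA, HY5 and PIL5 and below them for SPA2, SPA3, HB4 and PHYE. The share of all windows that separate in this way was not counted.

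PHYA (AT1G09570) was the photoreceptor gene with a call. It encodes the phytochrome of far-red light, abundant in dark-grown seedlings. Its rebuilt window, at 3094660 to 3095159 on chromosome 1, held 13.8 and 17.98 CPM in WT and 17.4 and 11.0 in nerd-1, against 40.8 and 31.9 in cpsf30-1. Both cpsf30-1 libraries were higher than all others, and the WT and nerd-1 values overlapped. The rise over WT was 2.28-fold (36.4 ± 6.31 against 15.9 ± 2.95 CPM, SD, n = 2 each; log2 fold change 1.19, SE 0.299, adjusted p = 0.0487). The call was close to the threshold and was lost without any 1 library (adjusted p 0.0554 to 0.144, log2 fold change 0.996 to 1.36). A second PHYA transcript, whose rebuilt window begins 96 bases upstream, had identical counts in all 6 libraries. As rebuilt, the last 295 bases of the window lie on the terminal exon of GLP5, a germin-like protein gene on the other strand. The window past GLP5 itself runs back, as rebuilt, over the PHYA end and onto PHYA exon, so it does not measure GLP5 alone. It held 44 and 113 (WT), 67 and 38 (nerd-1) and 33 and 40 (cpsf30-1) counts (log2 fold change -0.97, SE 0.402, adjusted p = 0.168). Whether the reads in the PHYA window come from PHYA or GLP5 cannot be told apart, since the strand setting of the counting is not given.

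PHYE (AT4G18130), a red-light phytochrome that acts with phytochrome B, held 68.3 and 84.5 CPM in WT and 54.95 and 60.1 in nerd-1, against 50.3 and 32.5 in cpsf30-1. The groups did not overlap, with WT highest and cpsf30-1 lowest. The difference between cpsf30-1 and WT missed the threshold (log2 fold change -0.89, SE 0.246, adjusted p = 0.0642), and it passed with DESeq2 (adjusted p = 0.0144), without a low-count filter (0.00685) and with windows in runs left out (0.0401). Of its window 210 bases lie on exons of ML3, annotated as a transcribed pseudogene on the other strand. PHYB (AT2G18790), the main red-light phytochrome of green seedlings, held 10 to 36 counts per library and PHYD (AT4G16250), its closest relative, 38 to 71. Neither passed in any comparison, with log2 fold changes of -0.54 (SE 0.576) and 0.04 (SE 0.367) in cpsf30-1 against WT. The PHYD window is isolated, and 81 bases of the PHYB window are exon of XTH21 on the same strand. The PHYB window lay in a run, with a floor of 12 of its 36 counts in WT replicate 2 and 12 of its 21 in nerd-1 replicate 1. CRY3 (AT5G24850), an organelle cryptochrome of the DASH type, held 11.99 and 5.79 CPM in WT and 11.1 and 8.63 in nerd-1, against 6.19 and 5.84 in cpsf30-1, and its WT and cpsf30-1 values overlapped (log2 fold change -0.55, SE 0.372, adjusted p = 0.392). Of the CRY3 window, 286 bases lie within AT5G24840 on the same strand, 64 of them exon.

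Among the COP1 partners, SPA2 (AT4G11110) and SPA3 (AT3G15354) fell. The 4 SPA proteins bind COP1 and are needed for its action, SPA1 (AT2G46340) and SPA2 mainly in dark-grown and SPA3 and SPA4 (AT1G53090) mainly in light-grown plants. The isolated window past SPA2, rebuilt at 6777226 to 6777725 on chromosome 4, had counts of 27 and 36 (WT), 7 and 11 (nerd-1) and 4 and 2 (cpsf30-1). In CPM these are 3.05 and 2.71, 0.683 and 1.14, and 0.387 and 0.186. WT was highest and cpsf30-1 lowest with no overlap between the 3 groups. The fall in cpsf30-1 was 9.73-fold (log2 fold change -3.28, SE 0.639, adjusted p = 0.0222). It was lost without cpsf30-1 replicate 1 (log2 fold change -3.88, adjusted p = 0.0766) or replicate 2 (-2.91, adjusted p = 0.11), and without replicate 1 the ratio of counts was 15.3 with a 95% exact counting interval of 4.07 to 129. Such counting intervals pool the reads of a genotype and leave out the spread between its libraries. The SPA2 window passed the low-count filter through WT, where it is high, so its call is not independent of the filter. AT4G11120, a translation elongation factor gene on the same strand, starts 26 bases beyond the window.

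The window past SPA3, rebuilt at 5168595 to 5169094 on chromosome 3, was even within genotypes. It held 31.6 and 32.1 CPM in WT and 28.3 and 28.1 in nerd-1, against 14.6 and 14.5 in cpsf30-1. The fall in cpsf30-1 was 2.19-fold (14.5 ± 0.0976 against 31.8 ± 0.391 CPM; log2 fold change -1.13, SE 0.21, adjusted p = 0.0189). It kept its size with any 1 library left out (log2 fold change -1.18 to -1.13), and its adjusted p was 0.0538 to 0.0778 without either nerd-1 or either cpsf30-1 library. All 500 bases of the window lie on exons of AT3G15350, a glycosyltransferase family gene on the other strand, 288 of them coding. The window past AT3G15350 itself begins, as rebuilt, inside the SPA3 gene, so it does not measure AT3G15350 alone. It had 524 and 943 (WT), 650 and 688 (nerd-1) and 864 and 849 (cpsf30-1) counts (log2 fold change 0.32, SE 0.167, adjusted p = 0.269). It did not pass the test, and which gene the SPA3 window reads come from cannot be told apart.

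The windows past SPA1 and SPA4 did not pass. SPA1 held 0.226 and 0.301 CPM in WT and 1.56 and 0.208 in nerd-1, against 0.581 and 1.11 in cpsf30-1. Its isolated window had 2 to 16 counts, so its log2 fold change of 1.62 over WT has an SE of 1.02 (adjusted p = 0.357). SPA4 had 12 to 32 counts per library and a log2 fold change of -0.02 (SE 0.499, adjusted p = 0.984), in a window that, as rebuilt, lies wholly on exons of AT1G53100 on the other strand and holds 294 exon bases of the lncRNA gene AT1G07853 on the same strand.

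**Figure D3:**
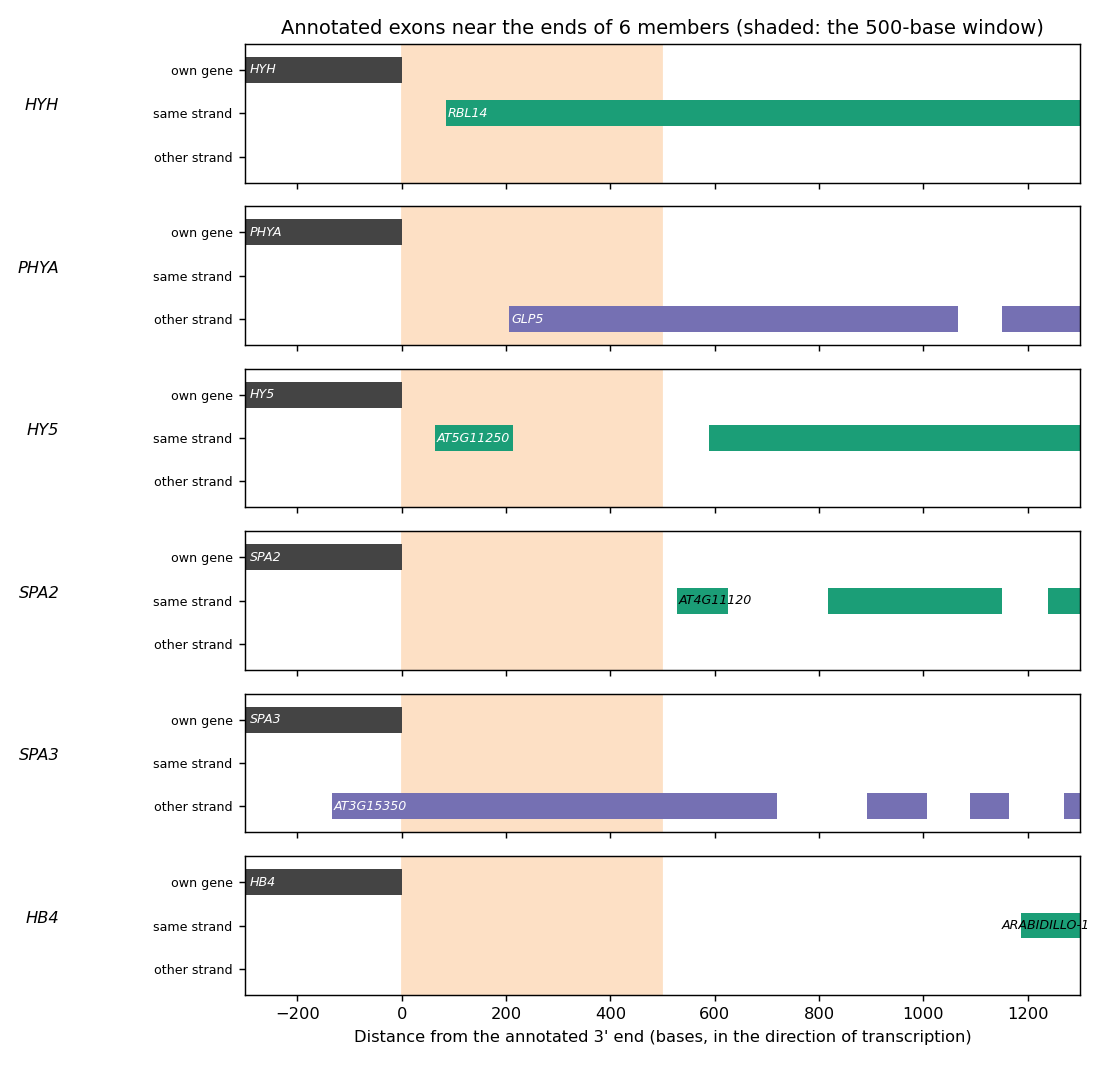
Annotated exons around the 3' ends of the 6 genes with a call, by distance in bases from the annotated end in the direction of transcription; the shaded stretch is the rebuilt 500-base window, which may differ from the counted one. The rebuilt windows past SPA2 and HB4 hold no other gene, those past HYH and HY5 hold exons of a gene on the same strand, and those past PHYA and SPA3 hold exons of a gene on the other strand.

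Reads rose past HYH (AT3G17609), the bZIP factor that acts beside HY5 (AT5G11260) in light-grown seedlings. Its rebuilt window, at 6024711 to 6025210 on chromosome 3, held 10.5 and 10.3 CPM in WT and 15.8 and 13.0 in nerd-1, against 24.6 and 28.9 in cpsf30-1. The 3 groups did not overlap, with nerd-1 between the others. The rise over WT was 2.57-fold (26.8 ± 3.09 against 10.4 ± 0.153 CPM; log2 fold change 1.36, SE 0.217, adjusted p = 0.0118). It kept its call without each library but cpsf30-1 replicate 2 (log2 fold change 1.18, adjusted p = 0.0515). Another pair of HYH transcripts with the same rebuilt window had 255 and 314 counts in cpsf30-1, in place of 254 and 312, so this interval alone does not give the counts of every isoform. As rebuilt, RBL14, a rhomboid-like protein gene on the same strand, starts 84 bases past the HYH end, and 416 bases of the window lie on its exons. The window past RBL14 held 0 to 4 counts per library and was not tested. More reads past HYH and more reads at the start of RBL14 therefore cannot be told apart.

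HY5 itself, the central activator of seedling greening, was called only against nerd-1. Its rebuilt window, at 3592835 to 3593334 on chromosome 5, had counts of 2 and 26 (WT), 1 and 0 (nerd-1) and 52 and 30 (cpsf30-1), or 0.226 and 1.96, 0.0976 and 0, and 5.03 and 2.78 CPM. Both cpsf30-1 libraries were highest, both nerd-1 libraries lowest, and the WT replicates lay far apart. In WT replicate 2 neighbouring windows shared a floor of 19 counts, against a floor of 0 to 2 in the other libraries. The ratio of cpsf30-1 to nerd-1 was 77.1 with a 95% exact counting interval of 13.5 to 3083 (edgeR adjusted p = 0.0323, n = 2 per group). That interval leaves out the spread between libraries. The HY5 window passed the low-count filter through cpsf30-1, where it is high, so its call is not independent of the filter. The call was lost without any 1 nerd-1 or cpsf30-1 library (adjusted p 0.0714 to 0.2). Without nerd-1 replicate 1 the nerd-1 count was 0 and the level in cpsf30-1 at least 12.4-fold higher (3 counts per library), and without nerd-1 replicate 2 the ratio was 39.8 (6.94 to 1590). Against WT the log2 fold change of 1.75 (SE 0.838) missed the threshold (adjusted p = 0.228), and it was 3.998 without WT replicate 2 (adjusted p = 0.052). The window holds a 149-base first exon of AT5G11250, a TIR-NBS-LRR disease resistance gene on the same strand, whose own window had 36 and 100 (WT), 52 and 38 (nerd-1) and 90 and 102 (cpsf30-1) counts (log2 fold change 1.01 over nerd-1, SE 0.356, adjusted p = 0.115).

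The PIFs, bHLH factors that phytochromes restrain in light, gave no call. PIL5 (AT2G20180), also called PIF1, which holds back seed germination, came nearest. Its window held 1.92 and 0.752 CPM in WT and 0.976 and 1.35 in nerd-1, against 3.68 and 3.99 in cpsf30-1. Both cpsf30-1 libraries were highest (log2 fold change 1.56 over WT, SE 0.552, adjusted p = 0.119, and 1.71 over nerd-1, SE 0.559, adjusted p = 0.0957). The window lies wholly within AT2G20170 on the other strand and covers 162 bases of its exons. PIL6 (AT3G59060), also called PIF5, held 9 to 50 counts per library, and PIF7 (AT5G61270), which acts in shade, 60 to 96. Their log2 fold changes over WT were 0.38 (SE 0.517) and -0.18 (SE 0.386). Of the PIL6 window, 105 bases are exon of PAO3 on the same strand. As rebuilt, the PIF7 window is all coding sequence of AT5G61260 on the other strand. A second PIF7 transcript with the same rebuilt window had 66 counts in WT replicate 2, where the first had 73, so this interval alone does not give the counts of both. In nerd-1 replicate 2 it lay in a run with a floor of 24 of its 67 counts.

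**Figure D4:**
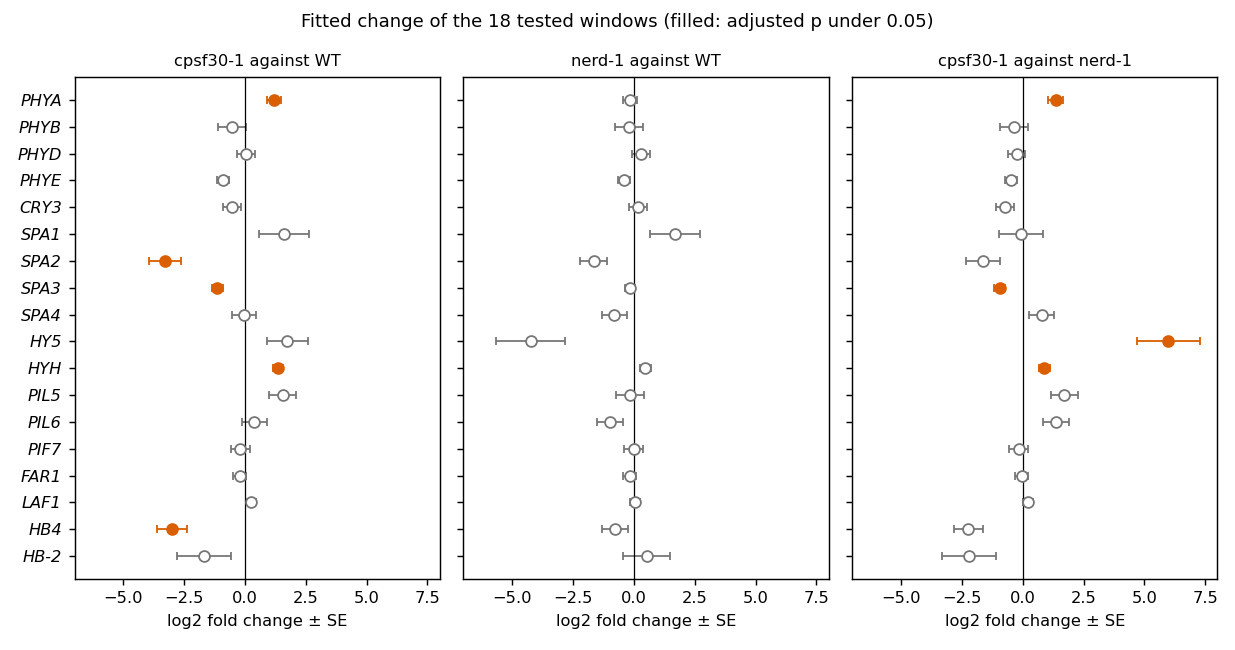
Fitted log2 fold change with its standard error for the 18 tested windows in the 3 comparisons; filled points passed an adjusted p of 0.05 and open points did not. The HY5 values against nerd-1, and those of nerd-1 against WT, rest on 1 nerd-1 count and depend on the prior count of the fit.

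Of the shade and far-red regulators, HB4 (AT2G44910) fell. HB4 is a homeodomain-leucine zipper factor of the shade response. Its isolated rebuilt window, at 18517156 to 18517655 on chromosome 2, had counts of 73 and 235 (WT), 79 and 73 (nerd-1) and 27 and 7 (cpsf30-1), or 8.26 and 17.7, 7.71 and 7.59, and 2.61 and 0.649 CPM. Both cpsf30-1 libraries were lowest, and the nerd-1 libraries lay just under the lower WT library. The fall against WT was 8.01-fold (1.63 ± 1.39 against 13.0 ± 6.66 CPM; SE 0.606 on the log2 scale, adjusted p = 0.0253). Both pairs of replicates were far apart, and the log2 fold change was -2.38 without WT replicate 2 (adjusted p = 0.0554), -2.37 without cpsf30-1 replicate 2 (adjusted p = 0.0755) and -4.31 without cpsf30-1 replicate 1. The call was also lost without either nerd-1 library (adjusted p 0.0592 and 0.0597). The nearest gene downstream, ARABIDILLO-1 on the same strand, begins 687 bases beyond the window. The floor shared by neighbouring windows was 0 to 4 counts, so no run touched it.

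HB-2 (AT4G16780), a relative of HB4 that is induced rapidly by shade, held 0.566 and 1.28 CPM in WT and 0.879 and 1.87 in nerd-1, against 0.581 and 0 in cpsf30-1. Its isolated window had 0 to 18 counts, and the difference from WT did not pass (log2 fold change -1.69, SE 1.12, adjusted p = 0.382). FAR1 (AT4G15090), a transposase-derived factor of far-red signalling, held 398 to 586 counts with a log2 fold change of -0.20 (SE 0.267). Of its window 412 bases are exons of LigB on the same strand. LAF1 (AT4G25560), a MYB factor of phytochrome A signalling, had the most reads of all members, at 619.6 and 484 CPM in WT and 588 and 546 in nerd-1, against 575 and 755 in cpsf30-1. These groups overlapped (log2 fold change 0.27, SE 0.202, adjusted p = 0.438), and 471 bases of the LAF1 window are exons of ACYB-2, a cytochrome b561 family gene on the other strand.

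The comparison of nerd-1 with WT addresses whether the silencing mutant differs in these windows. None of the 18 members passed in edgeR. Of all 14151 windows 1390 had an unadjusted p under 0.05 there, and of the 18 members 2 did. DESeq2 called 0 as well, but gave no adjusted p for 4 of them, SPA2, HY5, SPA1 and HB-2. Over all 14151 windows 0.0424% passed, 0.00707% as rises and 0.0353% as falls. The 2 members were SPA2, with 0.914 ± 0.326 CPM in nerd-1 against 2.88 ± 0.245 in WT (log2 fold change -1.65, SE 0.556, edgeR adjusted p = 0.405), and HY5, with 1 count in nerd-1 against 28 in WT (ratio of WT to nerd-1 25.1, 95% exact counting interval 4.15 to 1027, edgeR adjusted p = 0.402). Of the 28 WT counts of HY5, 26 came from replicate 2 with its shared floor of 19. The counting interval pools the reads of a genotype and leaves out this spread between libraries. HYH had a log2 fold change of 0.47 (SE 0.218, adjusted p = 0.536) and SPA3 one of -0.18 (SE 0.206, adjusted p = 0.786). The median over the 18 members was -0.17, beside -0.01 over all windows.

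Comparing cpsf30-1 with nerd-1 asks whether the 2 mutants differ, and it shares the cpsf30-1 libraries with the first comparison. Here 3 of the 18 members rose and 1 fell, which is 22.2%, beside 10.6% of all windows (7.38% rises and 3.24% falls). Reads rose 2.56-fold past PHYA (log2 fold change 1.36, SE 0.301, adjusted p = 0.0342) and 1.86-fold past HYH (0.89, SE 0.214, adjusted p = 0.0426). Those past SPA3 fell 1.94-fold (-0.95, SE 0.21, adjusted p = 0.0333), and the HY5 values stand above, with their limit from the low-count filter. HB4 had a log2 fold change of -2.23 (SE 0.61, adjusted p = 0.0615) and SPA2 one of -1.64 (SE 0.688, adjusted p = 0.168), and neither passed. All 4 calls were lost without any 1 nerd-1 or cpsf30-1 library (adjusted p 0.068 to 0.273).

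Beyond the members, 52 other light-signalling genes were listed, among them COP9 signalosome subunits, B-box factors and LOV-domain proteins. Their windows gave 27 tests. In cpsf30-1 against WT 3 of them rose and 1 fell, or 14.8%, beside 10.3% of all windows, with a median log2 fold change of 0.07. Reads past TT4, the chalcone synthase gene at the head of the flavonoid pathway and a target of HY5, rose from 3 and 1 counts in WT, through 4 and 5 in nerd-1, to 109 and 119 in cpsf30-1 (log2 fold change 5.78, SE 0.569, edgeR adjusted p = 0.00338). Reads past TZP, a zinc knuckle protein gene, rose from 1 and 4 in WT and 8 and 5 in nerd-1 to 73 and 47 (log2 fold change 4.62, SE 0.64, adjusted p = 0.00787). The 3 windows that rose passed the low-count filter only through cpsf30-1, where they are high, so their calls are not independent of the filter. The fold changes of TT4 and TZP rest on few WT counts, and no counting interval was computed for them. Those past AT2G16365 fell from a mean of 74.6 CPM in WT to 9.52 in cpsf30-1 (log2 fold change -2.97, SE 0.243, adjusted p = 0.00224). In nerd-1 against WT 0 of the 27 passed in edgeR and 1 had an unadjusted p under 0.05, and DESeq2 called 0 with no adjusted p for 5. In the remaining comparison 5 rose and 1 fell in cpsf30-1 against nerd-1 (22.2%, beside 10.6% of all windows). Most of these 5 windows also passed the low-count filter only through cpsf30-1, where they are high, so this share is not independent of the filter.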

How the data were processed

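RNA of 9-day-old seedlings was sequenced from 6 stranded polyA libraries. Reads were processed by the authors on the TAIR10 build, per the submitters' processing notes, with TopHat2 2.0.7, Bowtie2 2.3.4, Cuffdiff and Cufflinks 2.2.1. How reads were counted, by strand and where genes overlap, is not given in the sources used here. Each deposited file lists raw read counts by transcript for the 500 bases past its 3' end. The files hold no positions. Windows were rebuilt from the TAIR10.1 gene models, which may not be those the authors counted on. Each gene was represented by its transcript with the most downstream end (lowest isoform number if tied).

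Counts were filtered with filterByExpr (14151 windows tested, 16958 not), scaled by TMM and fitted in edgeR 4.0.16 under R 4.3.3 with 1 mean per genotype over all 6 libraries, with 3 residual degrees of freedom and a two-sided quasi-likelihood F-test. P-values were adjusted over all windows of a comparison by Benjamini-Hochberg. Values after ± are SDs of 2 libraries. The SE of a log2 fold change is its size over the root of F. Full values are given for members with a call and the next by adjusted p up to 12 in all, and the other light genes named are the 3 with the smallest adjusted p. Members and lists were chosen with earlier results of these data known. Lists of green, root and flower or seed markers were read as window counts only. Alternatives were DESeq2 1.42.0, other scalings, filters, transcripts and designs.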

Additional observations from a re-analysis of the deposited data

How the results depend on the processing

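With 2 replicates per genotype, the counts of members called depended on single libraries. In cpsf30-1 against WT, 2 rose and 3 fell as reported. Leaving out 1 library at a time, which leaves its genotype with a lone library assumed to vary like the others, gave 0 to 1 rises, 0 to 3 falls and 479 to 1159 calls over all windows in place of 1453. In cpsf30-1 against nerd-1 it gave 0 to 4 rises, 0 to 2 falls and 43 to 2304 calls in place of 1503, and in nerd-1 against WT no member and 0 to 91 calls in place of 6.

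Other settings moved some counts by over 1.5 times, and the cause was not tested. Without the low-count filter, which let 36 members and 25812 windows be tested, all calls were 2807 in cpsf30-1 against WT, 640 in nerd-1 against WT, with HY5 as 1 member lower, and 3021 in cpsf30-1 against nerd-1, with 2 members lower. Fits of only the 4 libraries compared gave 893, 0 and 2287 calls, with 1 member higher against WT and 2 lower against nerd-1. DESeq2 gave 160 calls in nerd-1 against WT and 2 members lower in cpsf30-1 against nerd-1. Library totals without TMM gave 1 member higher in cpsf30-1 against WT and 2 calls in nerd-1 against WT. The transcript with the highest total gave 1 member higher in cpsf30-1 against WT, and leaving out windows in runs, chosen after seeing the data, gave 2 lower in cpsf30-1 against nerd-1.

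Same-numbered libraries did not deviate together. Their deviations over 14151 windows correlated at -0.00493 for WT and nerd-1 and at -0.00103 for nerd-1 and cpsf30-1. For WT and cpsf30-1 the correlation was -0.31, so libraries of opposite number tended to deviate alike there, and the cause was not tested. With the replicate block, cpsf30-1 against WT had 1 member higher, 0 lower and 592 calls in all, nerd-1 against WT 0 calls, and cpsf30-1 against nerd-1 0 members higher, 0 lower and 409 calls. A block with the cpsf30-1 numbers exchanged, chosen after seeing the data, gave 2 members higher, 4 lower and 2118 calls in cpsf30-1 against WT. It gave 17 calls in nerd-1 against WT and, in cpsf30-1 against nerd-1, 2 members lower and 2440 calls.

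For the 12 members with full values, 447 of the alternative log2 fold changes kept direction and side of the threshold, 47 lost the call, 12 gained one, 15 changed sign and 4 had no adjusted p in DESeq2. None of those that changed sign belonged to a call. Leaving out 1 library spanned 0 for CRY3 in cpsf30-1 against WT (-1.03 to 0.0551). In nerd-1 against WT it did so for PHYA (-0.53 to 0.13), PIL5 (-0.72 to 0.62), SPA1 (-0.35 to 2.49), HB-2 (-0.11 to 1.26), CRY3 (-0.27 to 0.77) and LAF1 (-0.12 to 0.23). In cpsf30-1 against nerd-1 it did so for SPA1 (-0.87 to 1.97, and 0.0861 with the replicate block) and LAF1 (-0.0442 to 0.40). Depth limits the members with few counts: SPA1, SPA2, HY5 and HB-2 had libraries of 2 counts or fewer.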
